A study of Mus musculus with 2 samples.

Results

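The 10 genes described here carry the Notch signal in vessel walls or mark arterial endothelium. They are the receptors Notch1, Notch3 and Notch4, the ligands Dll4, Jag1 and Jag2, the transcriptional repressors Hey1, Hey2 and Heyl, which Notch switches on, and Efnb2, the gene of ephrin-B2. They were chosen by symbol, are 10 of 32285 gene identifiers, and all 10 had at least 1 UMI (unique molecular identifier, 1 captured RNA molecule) in the kept cells of each library. The single-cell RNA-seq data came from mouse aorta, dissociated and enriched on beads for CD31, a surface protein of endothelial cells (EC). The WT group was ApoE-/-/C57BL/6 mice, which lack apolipoprotein E, on a Western diet. The EC-iCD45KO group shared that background and diet, and their endothelium could in addition be made to lose CD45 by giving tamoxifen. CD45, the product of Ptprc, is a phosphatase best known from white blood cells, and the study asked how its loss in endothelium bears on endothelial-to-mesenchymal transition in atherosclerosis. The promoter that drove the deletion, the age and sex of the mice, the number pooled, and whether WT mice received tamoxifen are not given in the sources used here.

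Notch receptors sit in the cell membrane and are cut when a ligand on a neighbouring cell binds them. The released intracellular part enters the nucleus, joins the DNA-binding protein RBPJ and switches on genes of the HES and HEY families. In blood vessels this signal is known for setting arterial against venous identity and for restraining sprouting, and in the vessel wall Jag1 on endothelium signals to Notch3 on mural cells, the smooth muscle cells (SMC) and pericytes around the endothelium. Ephrin-B2 is a classical marker of arterial endothelium, and its receptor EphB4 marks veins.

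Each group had 1 library, so no difference between them had a replicate check and no p-value was computed. The libraries held 39849 barcodes with 92058043 UMIs for WT and 30278 barcodes with 88967918 UMIs for EC-iCD45KO, at medians of 1548 and 1405 UMIs per barcode, and 340 barcodes occurred in both. Leaving those barcodes out, which removed 40 WT and 53 EC-iCD45KO EC-like cells, changed none of the counts of members in the 5 classes where it was tried. Levels are given as CPM, the UMIs of a gene scaled to a fixed total of all UMIs (counts per 1e6) after adding up the cells of each class within each library. Ranges in brackets are exact 95% intervals, and they cover counting error only. Cells were grouped into 17 classes by marker genes, with the 10 genes, their pathway and Ptprc left out of the clustering. Clusters that met no naming rule stayed unnamed and entered no comparison, and some were uneven between the libraries. Cluster 1 held 644 WT and 4377 EC-iCD45KO cells, and cluster 10 held 2013 and 1. Cluster 28 (28 and 561 cells) scored nearly the same for fibroblasts and EC. It had Selp and Ackr1 among its leading genes but is not part of the venous EC-like class. The EC-like class held 3782 WT and 3997 EC-iCD45KO cells. Its arterial EC-like cluster, led by Sfrp1, Cytl1, Edn1, Stmn2, Gkn3, Gja5 and Gja4, held 805 and 541 cells. The capillary EC-like class, 2 clusters led by Gpihbp1, Depp1 and Rbp7, held 2517 and 2898 cells, and the venous EC-like cluster, led by Ackr1 and Selp, held 460 and 558. Of the mural cells, 1 cluster expressed both SMC and pericyte markers (Rgs5, Rgs4, Higd1b, Myh11, Des) and is called the Rgs4 mural cluster, with 227 and 209 cells. Ptprc was 301 CPM in WT and 108 CPM in EC-iCD45KO EC-like cells, a log2 ratio of -1.47 (-1.58 to -1.37), but it was also lower in SMC-like cells (263 against 98.8 CPM) and in macrophage-like cells (498 against 290 CPM). It was higher in EC-iCD45KO in neutrophil-like cells (968 CPM in WT against 2224 CPM) and in B-like cells (752.5 against 1253 CPM). Markers of B cells summed to 2155 CPM in WT and 644 CPM in EC-iCD45KO EC-like cells, and those of macrophages to 4095 and 6464 CPM. The EC markers themselves summed to 4560 and 5270 CPM.

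The genes lie on 7 chromosomes of GRCm38. Notch1 (ENSMUSG00000026923) is at chr2:26457903-26516663, Dll4 (ENSMUSG00000027314) at chr2:119325784-119335962 and Jag1 (ENSMUSG00000027276) at chr2:137081456-137116644. Notch3 (ENSMUSG00000038146) is at chr17:32120820-32166852 and Notch4 (ENSMUSG00000015468) at chr17:34564268-34588503. Jag2 (ENSMUSG00000002799) is at chr12:112907819-112929776, Hey1 (ENSMUSG00000040289) at chr3:8663359-8667256, Hey2 (ENSMUSG00000019789) at chr10:30832359-30842801, Heyl (ENSMUSG00000032744) at chr4:123233556-123249875 and Efnb2 (ENSMUSG00000001300) at chr8:8617434-8661242. Counts were summed over the whole gene. Notch1, Notch3 and Dll4 overlap annotated genes on the other strand, and the use of strand in counting is not given in the sources used here, so reads of those partners could not be told apart from theirs.

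RBPJ, the factor through which Notch reaches DNA, binds a core that can be written TGGGAA. The RefSeq promoter tables (GRCm38.p6, from 250 bases before to 50 bases after the start of transcription) held 8 of the 10 genes, all but Hey1 and Heyl. The core was found, on either strand, in the promoter of Hey2 alone among the 8, and in 25.6% of 32851 promoters of the same length. The Hey2 sequence is shown because Hey2 is also the member that most separates arterial from capillary EC-like cells below. It covers chr10:30842781-30843033 on the minus strand, 5′ to 3′, and the capitals mark the 2 matches, 1 starting 207 bases before the start site on the other strand and 1 starting 3 bases before it on the strand of the gene.
Hey2: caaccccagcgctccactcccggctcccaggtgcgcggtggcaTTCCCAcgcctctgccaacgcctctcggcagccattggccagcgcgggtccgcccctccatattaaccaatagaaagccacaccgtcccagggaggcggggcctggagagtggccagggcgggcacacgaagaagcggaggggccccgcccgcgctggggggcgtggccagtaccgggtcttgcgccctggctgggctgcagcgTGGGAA
The E-box CACGTG, the motif of HEY proteins, was in 0 of the 8 promoters and in 7.15% of all, and the ETS core CGGAAG was in 0 of 8 and in 16.9% of all. The SOX core ACAATG was in 2 of 8 (Notch4 and Jag1) and in 12.6% of all, and the GC box GGGCGG in 6 of 8 and in 35.7% of all. A match of letters is a description and not a bound site.

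**Figure D1:**
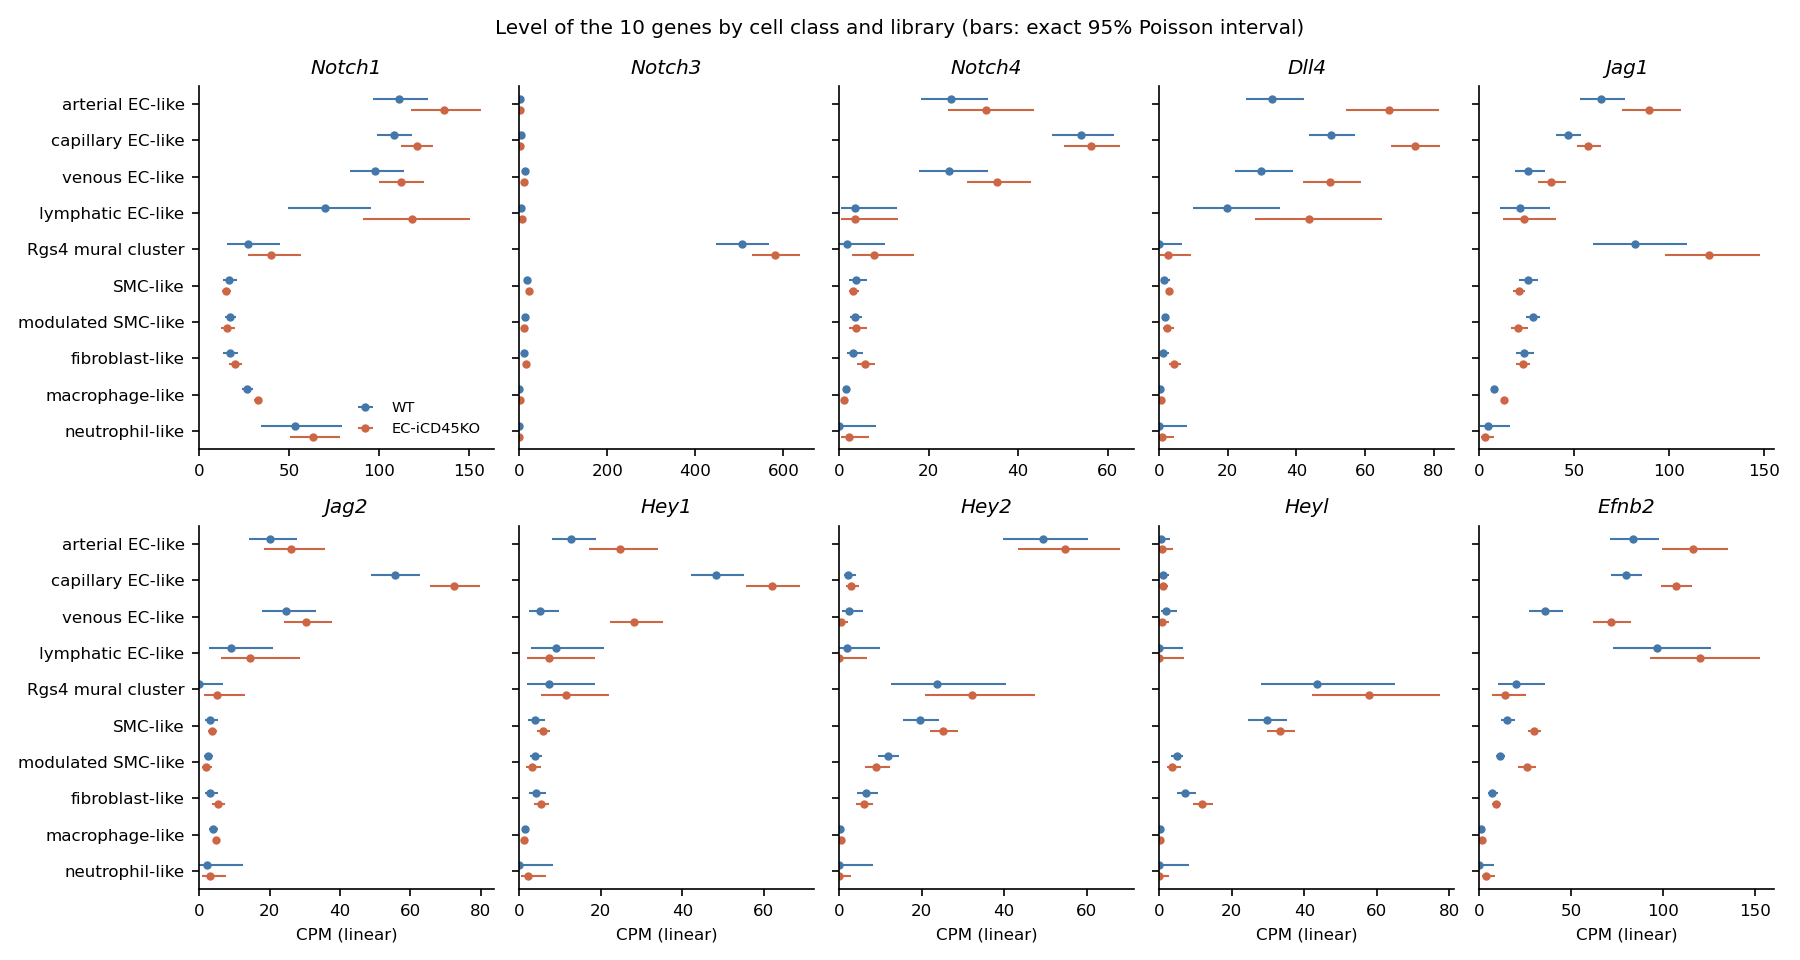
Level of each gene in 10 cell classes, as CPM on a linear axis that differs between genes, with 1 point per library (WT blue, EC-iCD45KO orange) and bars for the exact 95% Poisson interval. Notch1, Notch4, Dll4, Jag2 and Hey1 stand highest in endothelial classes, Notch3 in the Rgs4 mural cluster, Heyl in mural classes, and Hey2 in arterial EC-like and mural classes.

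The orders of levels below are among named classes. Cluster 40, which carried both EC and pericyte markers and was left unnamed (50 cells from WT, 29 from EC-iCD45KO), exceeded them in at least 1 library for several genes, such as Jag1 (97.0 and 229 CPM) and Notch3 (142.3 and 595.9 CPM).

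Among the receptors chosen here, Notch1 was the one found across the whole endothelium. Notch2, which was not chosen, was also found there. Its WT levels were 63.1 CPM in arterial, 68.7 CPM in capillary, 45.2 CPM in venous and 92.9 CPM in lymphatic EC-like cells. In WT Notch1 stood at 111 CPM (96.4 to 127) in arterial, 108 CPM (98.8 to 118) in capillary and 97.8 CPM (83.7 to 114) in venous EC-like cells. In EC-iCD45KO it stood at 136, 121 and 112 CPM. The intervals of neighbouring endothelial classes overlapped in each library, so the order of neighbours was not resolved. Arterial cells exceeded venous cells in EC-iCD45KO by a log2 difference of 0.28 (0.02 to 0.55), while in WT that interval held 0 (0.18, -0.12 to 0.48). Lymphatic EC-like cells had 69.7 and 118 CPM, the WT value below the intervals of the other endothelial classes. Outside the endothelium Notch1 was 53.3 and 63.0 CPM in neutrophil-like cells, 43.7 and 53.2 CPM in T/NK-like cells and 39.5 (7 UMIs) and 76.6 CPM in Schwann-like cells, and it was 16.8 and 14.8 CPM in SMC-like cells. Notch1 was thus not restricted to endothelium: 31.6% of its 2732 WT UMIs and 35.8% of its 3335 EC-iCD45KO UMIs were in EC-like cells, while macrophage-like cells held 11.6% and 30.4%. These shares also depend on class size. Of the UMIs of all genes, macrophage-like cells held 11907648 of 85429493 in WT and 31182351 of 82715426 in EC-iCD45KO. EC-like cells held 8103751 and 9898861.

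Notch4, a receptor known from endothelium, was more restricted and was highest in capillary cells. Capillary EC-like cells had 54.1 CPM in WT and 56.2 CPM in EC-iCD45KO, arterial cells 24.9 and 32.8 CPM, and venous cells 24.6 and 35.2 CPM. The arterial level was below the capillary one by log2 differences of -1.12 (-1.60 to -0.66; WT) and -0.78 (-1.25 to -0.34; EC-iCD45KO), whereas arterial and venous cells were not separated in either library. Lymphatic EC-like cells had 2 UMIs in each library. Of all Notch4 UMIs, 63.6% in WT and 66.2% in EC-iCD45KO were in EC-like cells.

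Notch3, the receptor of mural cells, was highest, among named classes, in a small one. The Rgs4 mural cluster had 278 UMIs among its 227 WT cells (505 CPM, 448 to 568), against 452 among its 209 cells from EC-iCD45KO (581 CPM, 529 to 637). SMC-like cells had 18.5 and 22.0 CPM, so the Rgs4 mural cluster was 27.3-fold higher in WT (log2 difference 4.77, 4.40 to 5.15) and 26.4-fold higher in EC-iCD45KO (4.72, 4.48 to 4.97). That small cluster held 40.4% and 44.1% of all Notch3 UMIs. After each cell was thinned to 1000 UMIs, with 76 and 70 shallower cells left out, 29.8% (22.6 to 37.8) and 41.7% (33.4 to 50.4) of its cells had a Notch3 UMI, against 0 of 173 and 0 of 554 neutrophil-like cells; without thinning the shares were 45.8% and 53.6%. The median depth was 1305 and 1420 UMIs in the mural cluster and 1255 and 1600 in neutrophil-like cells. Arterial EC-like cells had 3 and 2 Notch3 UMIs, and venous EC-like cells 12.6 and 10.6 CPM.

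Of the ligands, Dll4, the arterial and tip-cell ligand, was mostly endothelial. WT levels were 50.1 CPM (43.8 to 57.1) in capillary, 32.9 CPM (25.2 to 42.2) in arterial, 29.8 CPM (22.2 to 39.0) in venous and 19.7 CPM (9.81 to 35.2) in lymphatic EC-like cells. In EC-iCD45KO they were 74.5, 67.0, 49.9 and 43.6 CPM. Outside these classes no named class passed 5.01 CPM in either library. EC-like cells held 70.4% of the 480 WT UMIs and 76.7% of the 859 EC-iCD45KO UMIs, the largest endothelial share of the 10 genes. In WT Dll4 was lower in arterial than in capillary cells, by a log2 difference of -0.61 (-1.04 to -0.20), while in EC-iCD45KO that interval held 0 (-0.15, -0.48 to 0.17).

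Over the pooled capillary class Jag2 had the pattern of Notch4, while Jag1 did not. Jag2 was 55.5 and 72.4 CPM in capillary, 20.2 and 26.0 CPM in arterial, and 24.6 and 30.4 CPM in venous EC-like cells (WT, then EC-iCD45KO). The arterial level was below the capillary level by -1.46 (-1.99 to -0.96) in WT and -1.48 in EC-iCD45KO on the log2 scale. Among named classes Jag1 was highest in the Rgs4 mural cluster (81.8 and 121 CPM) and in arterial EC-like cells (64.2 and 89.6 CPM), with capillary cells at 46.5 and 57.3 CPM and venous cells at 25.8 and 37.8 CPM. Arterial cells exceeded venous cells in Jag1 by 1.32 (0.81 to 1.85) and 1.25 (0.86 to 1.63). Jag1 was also found in SMC-like (25.7 and 20.7 CPM), modulated SMC-like (28.1 and 20.6 CPM) and fibroblast-like cells (23.6 and 22.8 CPM), and 28.0% and 31.2% of its UMIs were in EC-like cells.

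The 3 HEY genes differed in where they were found. Within the endothelium Hey2 was highest in arterial EC-like cells, with 93 UMIs in the WT library (49.3 CPM, 39.8 to 60.4), against 80 in the EC-iCD45KO library (54.7 CPM, 43.4 to 68.1). Capillary cells had 2.24 and 2.98 CPM, so the arterial level was 22.1-fold higher in WT (log2 difference 4.46, 3.52 to 5.57) and 18.4-fold higher in EC-iCD45KO (4.20, 3.43 to 5.05). Venous cells had 4 and 1 UMIs. Hey2 was also present in the Rgs4 mural cluster (23.6 and 32.2 CPM) and SMC-like cells (19.5 and 25.3 CPM). Of all Hey2 UMIs, arterial cells held 22.3% and 16.2%, SMC-like cells 19.4% and 47.1%, and modulated SMC-like cells 21.8% and 7.5%. Such shares also depend on class size. SMC-like cells held 4157299 UMIs of all genes in WT and 9229445 in EC-iCD45KO, and modulated SMC-like cells 7733838 and 4177159.

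Hey1 ran the other way within the endothelium. In capillary cells WT had 48.3 CPM (42.1 to 55.2), and EC-iCD45KO had 62.0 CPM (55.7 to 68.8). Arterial cells had 12.7 and 24.6 CPM, log2 differences of -1.92 (-2.60 to -1.31) and -1.33 (-1.87 to -0.84). The WT venous cells had 5.15 CPM (2.36 to 9.78), those of EC-iCD45KO 28.2 CPM (22.3 to 35.3). Arterial cells stood above venous cells in Hey1 by 1.31 (0.15 to 2.60) on the log2 scale in WT, while the value in EC-iCD45KO was -0.20 (-0.81 to 0.39); the change between the libraries was not tested.

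Heyl was a mural gene. The Rgs4 mural cluster had 43.6 and 57.9 CPM, SMC-like cells 29.6 and 33.4 CPM, and fibroblast-like cells 7.16 and 11.8 CPM. EC-like cells had 9 UMIs in each library, below SMC-like cells by log2 differences of -4.74 in WT and -5.20 in EC-iCD45KO.

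Efnb2 did not separate arterial from capillary cells. Arterial EC-like cells had 83.3 CPM (70.8 to 97.4) in the WT library, 116 CPM (99.4 to 135) in the EC-iCD45KO library, and capillary cells 79.4 CPM (71.4 to 88.1) and 107 CPM (98.6 to 116). The log2 differences were 0.07 (-0.21 to 0.34) and 0.12 (-0.13 to 0.37). Venous cells were lower, at 35.5 and 71.5 CPM, by 1.23 (0.80 to 1.68) and 0.70 (0.40 to 1.01) against arterial cells. Lymphatic EC-like cells had 96.5 and 119.9 CPM, at the top of the order in both libraries, though their intervals overlapped those of arterial cells.

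The capillary class joined 2 clusters that differed in depth and in nearly every one of these genes. Cluster 16 (648 and 634 cells, median 2094 and 2774 UMIs) was the higher one, with Notch1 at 169 and 178 CPM, Notch4 at 95.6 and 87.4 CPM, Jag2 at 102 and 132 CPM, Hey1 at 79.2 and 99.6 CPM and Efnb2 at 139.8 and 153 CPM. Cluster 2 (1869 and 2264 cells, median 994 and 946 UMIs) had Notch1 at 65.9 and 82.2 CPM, Notch4 at 25.4 and 35.2 CPM, Jag2 at 23.1 and 32.3 CPM, Hey1 at 26.9 and 36.7 CPM and Efnb2 at 37.5 and 75.7 CPM. Efnb2 and Notch1 were therefore higher in cluster 16 than in arterial cells in each library, and lower in cluster 2. Dll4 in cluster 16 (84.1 and 102 CPM) was likewise above, and in cluster 2 (26.5 and 56.1 CPM) below, its arterial level of 32.9 and 67.0 CPM. Jag1 was 76.5 and 88.7 CPM in cluster 16 and 25.8 and 36.1 CPM in cluster 2, so in WT cluster 16 was not below arterial cells (64.2 CPM). Notch4 and Jag2 in cluster 2 lay near their arterial levels, so their excess in the capillary class came from cluster 16. The part of depth in these differences was not tested. The subtype names also depended on the setting. At resolution 2 the capillary EC-like clusters held 1127 and 894, and 388 and 465 cells. There a shallow EC-like cluster of 692 and 1075 cells (median 1183 UMIs) was named venous, and another of 541 and 837 cells had no subtype. Which cells changed name was not tested.

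**Figure D2:**
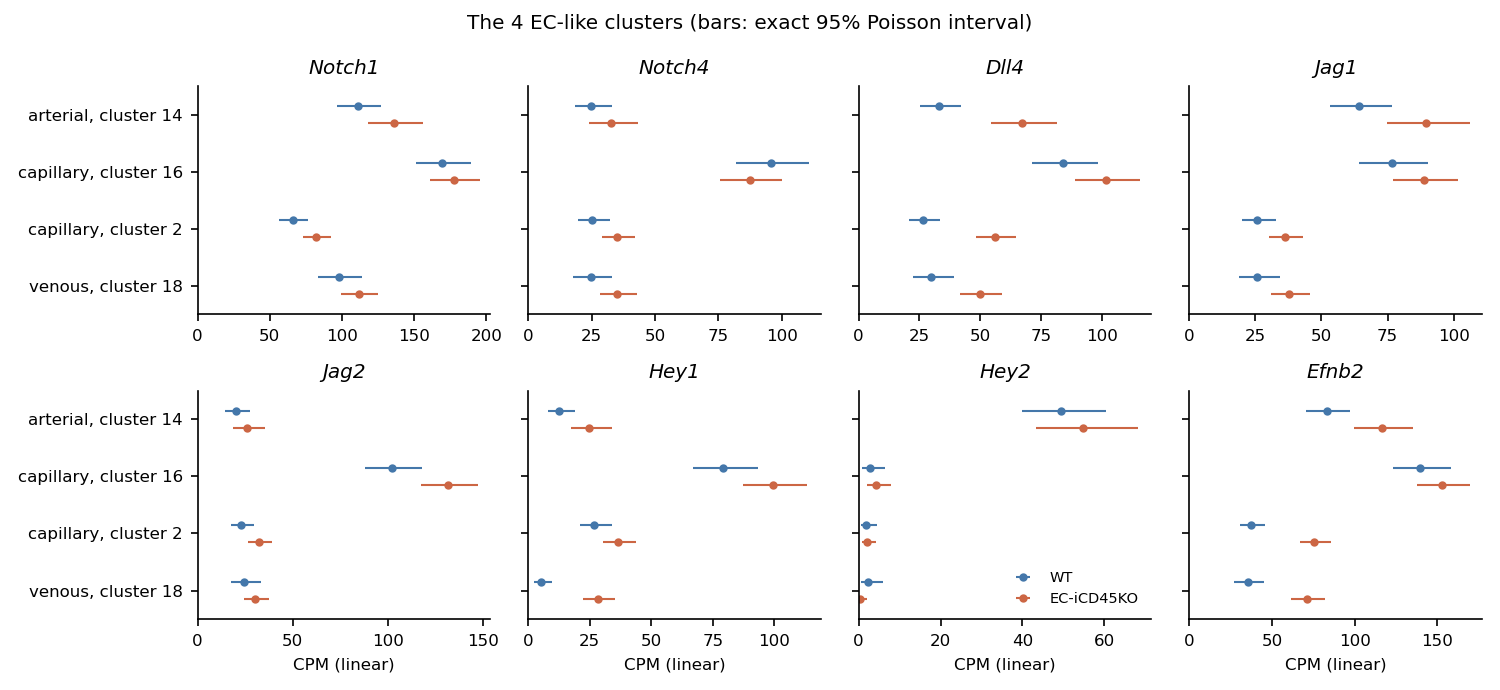
Level of 8 of the genes in the 4 EC-like clusters, as CPM on a linear axis that differs between genes, with exact 95% Poisson bars (WT blue, EC-iCD45KO orange). Hey2 reaches 49.3 and 54.7 CPM in cluster 14, the arterial one, and is at most 4.35 CPM in the other 3 clusters, while Notch4, Jag2 and Hey1 are highest in cluster 16.

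Genes outside the 10 with the most similar pattern were sought over 34 profiles (17 classes in 2 libraries) as the Pearson r of log2(CPM + 1) among 12671 genes, a description in which profiles share libraries and depth. Dll4 lay nearest to Nos3, the endothelial nitric oxide synthase (r = 0.931), Stap2 (0.918) and Adcy4 (0.915). Notch4 lay nearest to Adgrl4 (0.919), Sema3g (0.918) and Palmd (0.909). Efnb2 lay nearest to Sema3f (0.916), Ephb4, the gene of its own receptor (0.908), and Nectin2 (0.905). Heyl lay nearest to Carmn (0.967), Des, the muscle filament desmin (0.916), and Npy1r (0.916), and Notch3 to Clstn2 (0.889), Ednra (0.882) and Rgs4 (0.878). Jag1 lay nearest to Epas1, Cyth3 and Crim1, Notch1 to Arhgap31, Numb and Sgms1, and Hey1 to 4931406P16Rik, Lrrc8a and Cdc42ep1, with r from 0.837 to 0.909. Among the 10 genes themselves the closest pairs were Dll4 with Jag2 (r = 0.877), Hey1 with Efnb2 (0.830) and Dll4 with Efnb2 (0.825).

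Between the libraries, most members stood higher in EC-iCD45KO in the endothelial classes, though scaled to the EC markers the ratios of Notch1 and Notch4 turned below 0 over all EC-like cells (-0.03 and -0.01) and in capillary cells. Each comparison below counts the members past 1.5-fold among those with at least 20 UMIs over both libraries, and sets that count beside the share of all genes past the same fold. The log2 ratio is that of the EC-iCD45KO CPM over the WT CPM.

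In arterial EC-like cells 8 members had enough UMIs, and all 8 had a ratio above 0, with a median of 0.44 against -0.02 over all 10465 genes tested. Past 1.5-fold were 2 of them, Dll4 and Hey1, both higher, and 0 were lower; of all genes, 9.39% were higher and 12.5% were lower. Dll4 had 62 UMIs in WT and 98 in EC-iCD45KO (32.9 and 67.0 CPM), which is 2.04-fold (log2 ratio 1.03, 0.55 to 1.51), and the 2 intervals did not overlap. Hey1 had 24 and 36 UMIs (12.7 and 24.6 CPM; 0.95, 0.17 to 1.76), and its 2 intervals did overlap. Jag1 (0.48, 0.11 to 0.85), Efnb2 (0.48, 0.16 to 0.80) and Notch1 (0.30, 0.01 to 0.58) stayed within 1.5-fold. Notch4 (0.40, -0.21 to 1.01), Jag2 (0.37, -0.32 to 1.05) and Hey2 (0.15, -0.30 to 0.60) had intervals that held 0. At a clustering resolution of 2 the Dll4 ratio was 0.56, and under a stricter cell filter that of Hey1 was 0.56, both short of 1.5-fold.

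Markers of other cells moved with this comparison. In arterial EC-like cells the macrophage markers summed to 3324 CPM in WT and 6872 CPM in EC-iCD45KO, with 10 of 12 higher past 1.5-fold and none at 0, and the B cell markers summed to 1566 and 186 CPM, with 10 of 10 lower. Capillary EC markers summed to 1265 and 1884 CPM, with 8 of 13 higher, and arterial EC markers to 12134 and 10636 CPM, with 3 of 17 higher and 4 lower. The EC markers summed to 4968 and 5213 CPM. The part of these in the ratios was not tested; scaled to the EC markers, the Dll4 ratio was 0.96 and the Hey1 ratio 0.88.

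In capillary EC-like cells 9 members had enough UMIs and their median was 0.36, against -0.01 over 12827 genes. That median did not hold under every setting: it was -0.05 under the stricter cell filter (7 members), 0.13 with each cell weighted equally and 0.07 scaled to the EC markers. None was higher past 1.5-fold and 1 of 9 was lower, Notch3; of all genes 8.15% were higher and 11% lower. The lower member rested on 19 and 16 UMIs (-0.60, -1.66 to 0.44), and it was no longer past 1.5-fold in 4 of 11 alternatives. Dll4 came closest on the other side, with 224 and 425 UMIs (50.1 and 74.5 CPM) and a ratio of 0.57 (0.33 to 0.81), 1.49-fold. Efnb2 (0.43), Jag2 (0.38), Hey1 (0.36) and Jag1 (0.30) also had intervals above 0. The 2 clusters differed here: in cluster 2 Dll4 was 26.5 and 56.1 CPM, 2.11-fold, and Efnb2 37.5 and 75.7 CPM, 2.02-fold, whereas in cluster 16 Dll4 was 84.1 and 102 CPM (0.27, -0.03 to 0.58) and Efnb2 139.8 and 153 CPM. The difference between the clusters was not tested. EC markers in the capillary class summed to 3991 and 4892 CPM, and scaled to them the ratios of Notch1 and Notch4 turned below 0 (-0.14 and -0.24), while Dll4 kept 0.28. Angiogenic EC markers summed to 211 and 401 CPM, with 8 of 10 higher past 1.5-fold, and macrophage markers to 5026 and 7502 CPM; their part was not tested.

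In venous EC-like cells Hey1 stood apart most. Of 8 members with enough UMIs 3 were higher past 1.5-fold and 0 lower, against 9.46% and 12.5% of 11161 genes, and their median was 0.53 against -0.01. Hey1 had 9 UMIs among the 460 WT cells, against 77 among the 558 from EC-iCD45KO (5.15 and 28.2 CPM), a 5.48-fold difference (2.45, 1.46 to 3.64) that stayed past 1.5-fold in all 9 alternatives that gave a value (1.27 to 2.49). The lowest of these, 1.27, was with each cell weighted equally. The venous class did not hold the same cells in every alternative. Under the stricter cell filter it included a cluster of 687 WT and 1164 EC-iCD45KO cells, and at resolution 2 one of 692 and 1075. Efnb2 had 62 and 195 UMIs (35.5 and 71.5 CPM; 1.01, 0.59 to 1.45). Dll4 had 52 and 136 UMIs (29.8 and 49.9 CPM; 0.74, 0.27 to 1.23). The intervals of the 2 libraries did not overlap for any of these 3. With each cell weighted equally, the ratios of Dll4 and Efnb2 were 0.47 and 0.45, short of 1.5-fold. In this cluster capillary EC markers summed to 13250 CPM in WT and 10038 CPM in EC-iCD45KO, lymphatic EC markers to 1561 and 272 CPM and macrophage markers to 2546 and 4075 CPM, and their part was not tested.

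**Figure D3:**
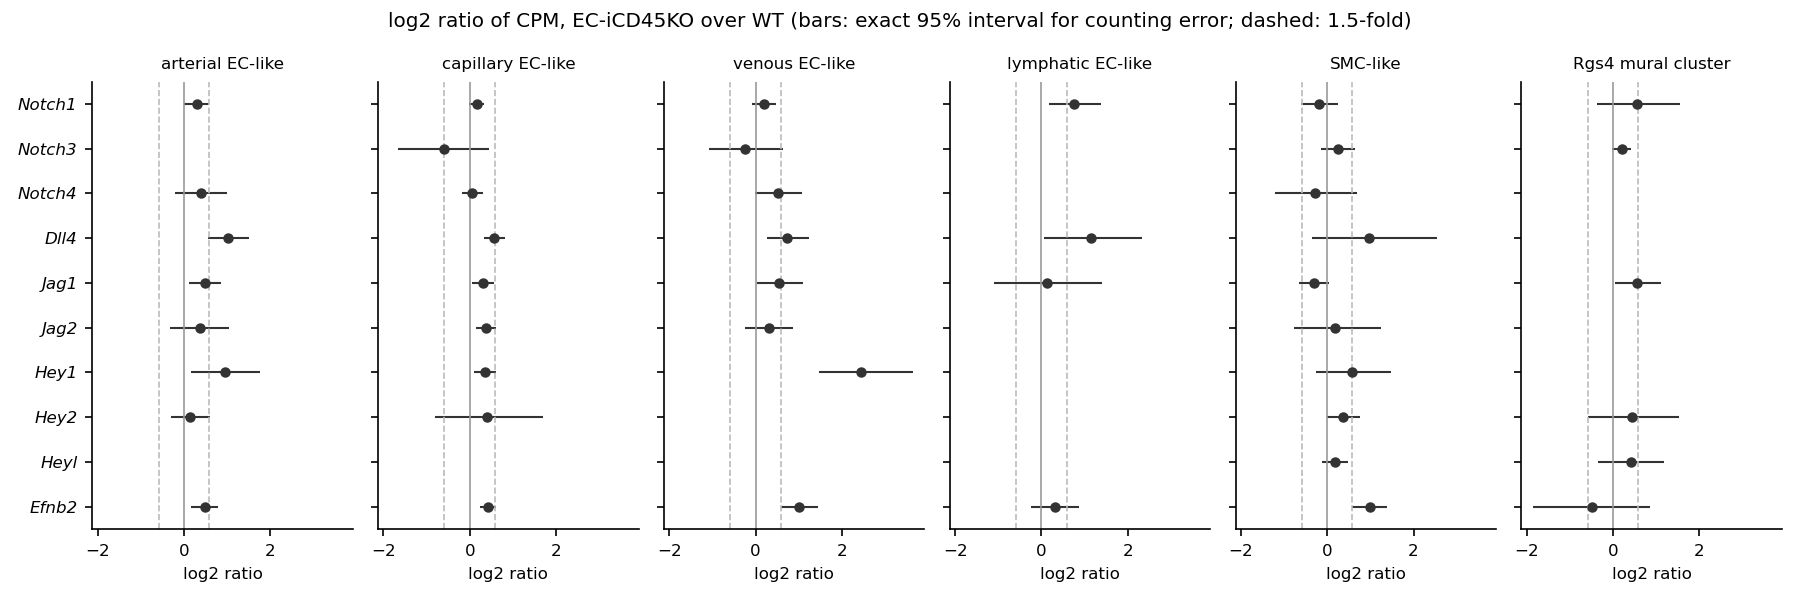
Log2 ratio of CPM, EC-iCD45KO over WT, for the members with at least 20 UMIs in each of 6 classes, with exact 95% intervals for counting error and dashed lines at 1.5-fold. Dll4 lies above 0 in all 5 classes where it is drawn, and Hey1 reaches 2.45 in venous EC-like cells.

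Over all EC-like cells together, 9 members had enough UMIs, with a median ratio of 0.30 against -0.02 over 14068 genes. Dll4 (338 and 659 UMIs; 41.7 and 66.6 CPM; 0.67, 0.48 to 0.87) and Hey1 (249 and 467 UMIs; 30.7 and 47.2 CPM; 0.62, 0.39 to 0.85) were higher past 1.5-fold, 2 of 9 beside 7.65% of all genes, and 0 were lower beside 11.3%. Both ratios lay near the threshold: Dll4 passed it in 6 of 11 alternatives (0.47 to 0.94) and Hey1 in 5 of 11 (0.32 to 0.94). Hey2 stood at 13.2 and 9.90 CPM over all EC-like cells (-0.42, -0.83 to -0.01), the opposite sign to its ratio within arterial cells. Arterial cells were 21.3% of WT and 13.5% of EC-iCD45KO EC-like cells, and they held 93 of 107 WT and 80 of 98 EC-iCD45KO Hey2 UMIs.

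Lymphatic EC-like cells, 286 and 225 in number, gave 4 members enough UMIs. Notch1 (39 and 65 UMIs; 69.7 and 118 CPM; 0.76, 0.17 to 1.37) and Dll4 (11 and 24 UMIs; 19.7 and 43.6 CPM; 1.15, 0.07 to 2.33) were higher past 1.5-fold, 2 of 4 beside 16.2% of all genes, and 0 were lower beside 13.9%. Efnb2 (0.31) and Jag1 (0.14) stayed within it. Macrophage markers summed to 2780 CPM in WT and 7992 CPM in EC-iCD45KO there and the lymphatic markers to 13346 and 19921 CPM, and their part was not tested. Scaled to the EC markers the Notch1 ratio was 0.46.

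In SMC-like cells all 10 members had enough UMIs, and 2 were higher past 1.5-fold and 0 lower, beside 8.85% and 14.5% of 13392 genes. Efnb2 had 63 UMIs in WT and 275 in EC-iCD45KO (15.2 and 29.8 CPM; 0.98, 0.58 to 1.39), and it stayed past 1.5-fold in 10 of 10 alternatives (0.66 to 1.35), none of which split the class. Its 2 clusters differed: Efnb2 was 2.89-fold higher in cluster 3 (21 and 113 UMIs) and 1.475-fold, short of the threshold, in the deeper cluster 26 (42 and 162 UMIs). Dll4 had 6 and 26 UMIs (0.96, -0.35 to 2.54), and 0.37 under a looser cell filter. Its call rested on cluster 3 (1 and 21 UMIs), while cluster 26 had 5 UMIs in each library and a ratio of -1.39 (-3.51 to 0.73). In modulated SMC-like cells Efnb2 was 11.1 and 25.6 CPM (2.30-fold, log2 interval 0.78 to 1.63). There the smaller cluster 23, led by Ccn5 and Mmp3, was 3.06-fold higher (38 and 86 UMIs), and the larger cluster 4, led by Ibsp and Slurp1, had an interval that held 0 (0.46, -0.36 to 1.22). Notch3 was 18.5 and 22.0 CPM, Heyl 29.6 and 33.4 CPM, and Hey2 19.5 and 25.3 CPM (0.37, 0.00 to 0.76), all within 1.5-fold over the class. By cluster, Heyl was 1.59-fold higher in cluster 3 (29 and 86 UMIs) and had a ratio of -0.15 (-0.50 to 0.22) in cluster 26. In cluster 23 of the modulated class Notch3 (71 and 34 UMIs) and Hey2 (66 and 31 UMIs) were lower past 1.5-fold. The share of all genes past 1.5-fold was not computed for the modulated class or for single clusters, so these values have no such share beside them. Jag1 was 25.7 and 20.7 CPM in SMC-like cells and 28.1 and 20.6 CPM in modulated SMC-like cells (-0.45, -0.82 to -0.08). The SMC markers summed to 28714 and 35747 CPM and the EC markers to 250.2 and 250.3 CPM in SMC-like cells, with 6 of 12 EC markers higher past 1.5-fold and 1 lower. Scaled to the SMC markers Notch3 and Heyl had ratios of -0.07 and -0.14.

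In the Rgs4 mural cluster 6 members had enough UMIs and 0 passed 1.5-fold in either direction, beside 15.5% of all genes higher and 14.5% lower. Notch3 was 505 and 581 CPM (0.20, -0.02 to 0.42), and Jag1 was 81.8 and 121 CPM (0.56, 0.04 to 1.11). Pericyte markers summed to 2622 and 5695 CPM in this cluster, with 6 of 9 higher past 1.5-fold, and EC markers to 305 and 502 CPM, and their part was not tested. In the other classes the members were mostly near the limit of detection. Fibroblast-like cells had Heyl at 7.16 and 11.8 CPM (0.72, 0.09 to 1.39), but their clusters made up different shares of the libraries, and within cluster 11 (552 and 1367 cells) the Heyl ratio was 0.23 (-0.48 to 0.99). They had Dll4 at 5 and 27 UMIs, and macrophage-like cells had Jag1 at 7.98 and 12.9 CPM (0.69, 0.37 to 1.03).

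Shares of cells with a UMI were computed at matched depth. After thinning to 1000 UMIs, 611 WT and 404 EC-iCD45KO arterial cells remained, with 194 and 137 left out. Of these, 3.60% and 6.44% had a Dll4 UMI, 5.89% and 9.41% a Jag1 UMI, and 2.46% and 4.46% a Hey2 UMI; unthinned, the shares were 6.83% and 12.2%, 11.7% and 17.0%, and 8.70% and 9.61%. A UMI of any of the 3 ligands was found in 10.6% (8.31 to 13.4) and 17.8% (14.2 to 21.9) of the thinned arterial cells, and in 0.578% and 0.542% of thinned neutrophil-like cells, at median depths of 1483 and 1562 UMIs against 1255 and 1600. A receptor and a ligand together were found in 1.47% and 3.47%. In venous cells, of which 437 and 518 remained, Dll4 was found in 3.43% (WT) and 2.90% (EC-iCD45KO), against the direction of its CPM, so no order was read from it; the unthinned shares were 9.13% and 13.4%. A ligand UMI was likewise found in 8.47% and 7.14% of these cells. The shares with a Hey1 UMI were 0.687% and 2.12%. A receptor UMI was found in 10.1% (7.41 to 13.3) and 11.8% (9.13 to 14.9), intervals that overlapped, beside 5.78% and 6.32% of neutrophil-like cells. No order was read from these shares either.

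The rest of the pathway was described from gene lists, with values in arterial cells first. The counts stand beside 9.39% of all genes higher and 12.5% lower past 1.5-fold in arterial cells, 8.15% and 11% in capillary cells, and 9.46% and 12.5% in venous cells; most lists are too short to set apart from these. Of 2 further ligands and receptors with enough UMIs, the ligand gene Dll1 was 29.7 and 52.7 CPM (0.83, 0.31 to 1.35), and the receptor gene Notch2 was 63.1 and 43.1 CPM (-0.55, -1.02 to -0.10), below WT but within 1.5-fold. Venous cells had both lower, Notch2 at 45.2 and 23.5 CPM and Dll1 at 46.9 and 28.6 CPM. Genes that cut the receptor, 9 in number, had 1 past 1.5-fold in arterial cells, Furin, a protease that matures Notch (41.4 and 64.3 CPM), and the most abundant, Adam10, was 281 and 267 CPM. Of 5 genes that add sugars to Notch, 1 was higher, Lfng (25 and 31 UMIs). Genes of ligand endocytosis and turnover (8 tested, with Numb at 108 and 124 CPM) and of the nuclear complex (9 tested, with Rbpj at 75.9 and 88.9 CPM) had 0 past 1.5-fold in either direction.

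Of 4 other target genes, Nrarp, a feedback inhibitor that Notch switches on, was higher in arterial cells at 28.1 and 53.3 CPM (0.92, 0.40 to 1.46), and it was 47.2 and 61.5 CPM in capillary and 29.8 and 42.5 CPM in venous cells. It was lower in the Rgs4 mural cluster, at 74.5 and 41.2 CPM (-0.86, -1.57 to -0.15), and had 9 and 1 UMIs in lymphatic EC-like cells. Hes1, another direct target, was 114 and 125 CPM in arterial cells (0.13, -0.17 to 0.42), within 1.5-fold. Dtx1 was lower, with 25 and 1 UMIs in arterial and 67 and 6 UMIs in capillary cells. In lymphatic EC-like cells it went the other way, with 50 and 98 UMIs (89.3 and 178 CPM; 0.49 to 1.52 on the log2 scale). It also had 54 and 12 UMIs in SMC-like cells, beside the lower B cell markers of EC-iCD45KO, whose part was not tested. Among the ephrin and Eph genes 3 of 5 were higher in arterial cells, Efna1 (71.1 and 111 CPM), Ephb4 (24.9 and 47.9 CPM) and Epha2 (15 and 19 UMIs). The interval of Epha2 held 0 (-0.35 to 1.79). Ephb1 was higher in capillary and venous cells.

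Among other genes of arterial identity Sox18, an endothelial transcription factor, was 97.1 and 195 CPM in arterial cells (1.01, 0.73 to 1.28), 97.1 and 159 CPM in capillary cells (0.72, 0.55 to 0.88) and 166 and 591 UMIs in venous cells (1.19, 0.94 to 1.45). Of the 15 tested in arterial cells, 4 were higher past 1.5-fold (Sox18, Smad6, Gja1 and Foxc2) and 0 lower, with a median of 0.21. The interval of Gja1 held 0 (-0.29 to 1.56). Venous cells had 6 higher and 3 lower of 15, the chemokine gene Cxcl12 among the former (203 and 359.5 CPM) and Vegfc among the latter (50.4 and 29.3 CPM). Of 5 genes of the venous list tested in arterial cells, 3 were higher past 1.5-fold and 1 lower, with a median of 0.94. The 3 were Nr2f2, Flrt2, and Ephb4, which is also counted among the Eph genes above. Flrt2 rested on 8 and 12 UMIs, and its interval held 0 (-0.46 to 2.45). Nr2f2, which encodes the venous factor COUP-TFII, was 17.0 and 35.6 CPM in arterial cells (1.07, 0.40 to 1.75), against 265 and 254 CPM in venous cells. The lower one, Bmp4, was 320 and 205 CPM in arterial and 49.2 and 31.5 CPM in venous cells, so in these libraries its level was higher in the arterial cluster despite its list.

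**Figure D4:**
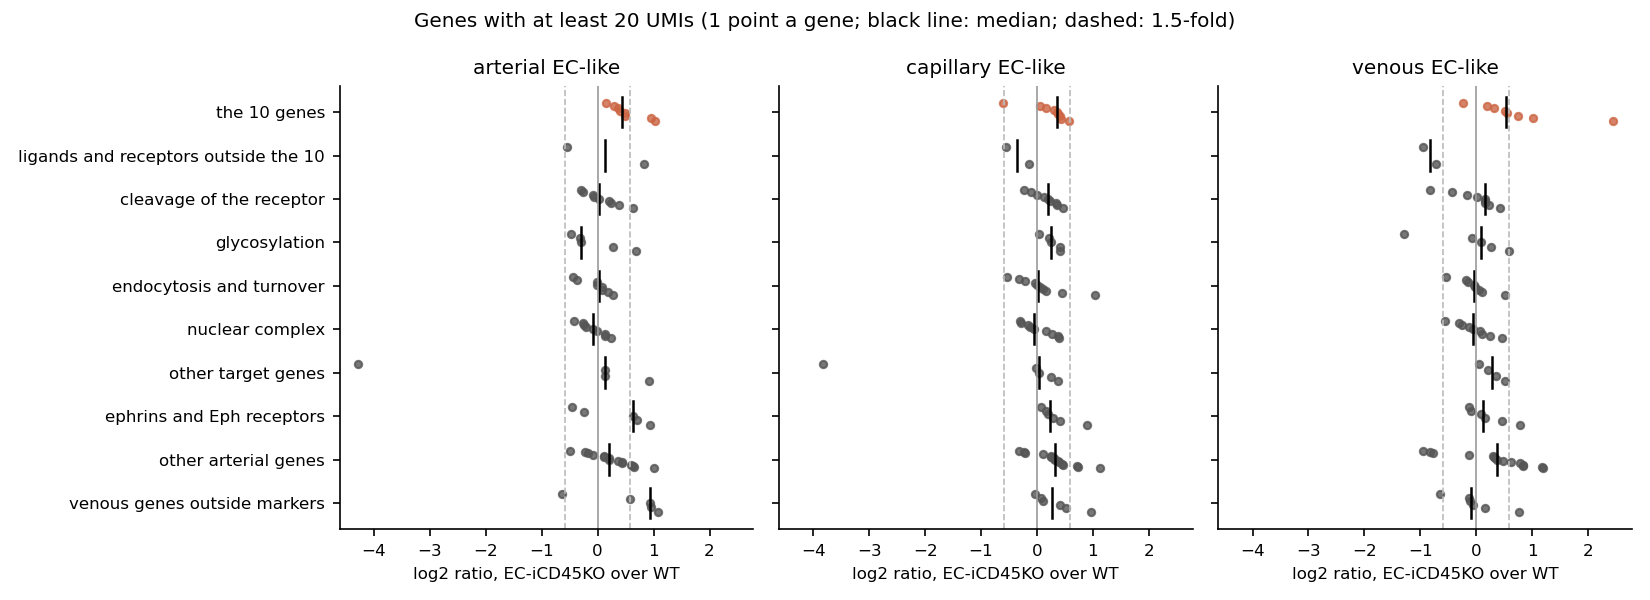
Log2 ratio, EC-iCD45KO over WT, of each gene with at least 20 UMIs in 3 endothelial classes, 1 row per list, with the median as a black line and dashed lines at 1.5-fold. The 10 genes (orange) have medians of 0.44, 0.36 and 0.53 in arterial, capillary and venous EC-like cells, and Dtx1 is the point near -4 among the other target genes.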

How the data were processed

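Single-cell RNA-seq of CD31-enriched mouse aortic cells was deposited by the authors as 1 filtered matrix of UMI counts per gene and cell for each library, made with Cell Ranger 7.1.0 per the file headers and on mm10 per the submitters' processing notes; use of strand and of intronic reads is not given in the sources used here. The deposited counts were not normalized. The members and gene lists, and the naming rules, were chosen with earlier results of these data known. Barcodes were kept with 300 genes or more and a mitochondrial share up to 10%, 39503 WT and 28960 EC-iCD45KO. Scrublet's own threshold marked 2 and 0 cells and had not worked, so the 10% with the highest scores in each library were removed, which left 35553 and 26064. Clustering used Scanpy 1.11.5 (2000 variable genes, 30 principal components, 20 neighbours, Leiden resolution 1), with 84 genes left out: the members, their pathway and Ptprc. Clusters were named from marker lists. UMIs were summed per class and library and given as CPM with exact Poisson intervals, shares with exact Clopper-Pearson intervals after thinning to 1000 UMIs, and ratios with exact conditional binomial intervals, all at 95%. With 1 library per group there was no test; a ratio past 1.5-fold with at least 20 UMIs was counted. Beyond the 10 members, named genes were at most the 3 with the highest levels and the 3 with the largest changes in each pathway list. Alternatives covered the cell filters, doublets, resolution, scaling (TMM from edgeR 4.0.16), weighting, thresholds and marker-free cells.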

Additional observations from a re-analysis of the deposited data

Results flagged for a closer look

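Cluster 40, of 50 WT and 29 EC-iCD45KO cells, carried markers of both EC and pericytes, was given no name and entered no comparison. Notch3 stood there at 142.3 CPM (22 UMIs) in WT and 595.9 CPM (65 UMIs) in EC-iCD45KO, beside 505 and 581 CPM in the Rgs4 mural cluster.

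Jag1 moved in opposite directions between classes. Its log2 ratio, EC-iCD45KO over WT, was above 0 with an interval that left out 0 in arterial (0.48), capillary (0.30) and venous EC-like cells (0.55), in the Rgs4 mural cluster (0.56), and in macrophage-like (0.69) and T/NK-like cells (1.16). In modulated SMC-like cells it was -0.45; there Jag1 was lower in the smaller cluster 23 (-0.66, -1.10 to -0.23), while the interval in the larger cluster 4 held 0 (-0.31, -1.12 to 0.43). In capillary cells the ratio was 0.21 in cluster 16, with an interval that held 0 (-0.10 to 0.53), and 0.01 over the class when scaled to the EC markers. The macrophage-like and T/NK-like classes joined clusters whose shares differed between the libraries: cluster 17 was 829 of 4126 WT and 227 of 515 EC-iCD45KO T/NK-like cells, and cluster 6 was 798 of 2969 and 2529 of 5966 macrophage-like cells. The difference between the classes was not tested, since each group had 1 library.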

How the results depend on the processing

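No paired analysis was possible because there was a single library per group. Of the ratios of single members under all alternatives, 506 moved by less than their interval, 59 moved further, and no called ratio changed sign. The shares of cells were less stable: 86 moved beyond their interval and 54 did not when thinned to 2000 UMIs, and 92 and 48 with no thinning. The number of members past 1.5-fold was 2 in EC-like cells, and it was 0 under the looser cell filter, the mean of single-cell CPM and a 2-fold threshold, 1 without doublet removal, at Leiden resolution 2 and in cells free of other classes' leading markers (3 members tested, 68 and 70 cells), and 1, a lower one, when scaled to the class's own markers. The median ratio there, 0.30, was 0.49 in the marker-free cells and 0.09 scaled to own markers. In arterial cells the number was 2, against 5 under the looser filter, 4 at resolution 2 and 1 at 2-fold. In capillary cells it was 1, a lower one, against 0 under the stricter and looser filters, single-cell means, marker-free cells, 2-fold and cluster 16 only, 4 at resolution 2 (3 higher, 1 lower) and 2, both higher, in cluster 2 only; with TMM factors it was also 1, but a higher one, and Notch3 was at -0.57. In venous cells it was 3, against 5 under the stricter filter (4 higher, 1 lower) and 5 with no minimum (3 higher, 2 lower), and 1 with single-cell means. In SMC-like cells it was 2, against 1 under the looser filter, 6 with single-cell means (5 higher, 1 lower), 0 at 2-fold and 4 scaled to own markers (2 higher, 2 lower), where the members' median turned from 0.22 to -0.10. The cause of these moves was not tested. Own-marker scaling, single clusters and leaving out shared barcodes were chosen after seeing the data; without the shared barcodes every one of these 5 numbers stayed as it was. Own-marker scaling moved the median of all genes by -0.21 in EC-like, -0.29 in capillary and -0.32 in SMC-like cells. The marker-free cells gave no count for arterial, venous and SMC-like cells, where no member had enough UMIs. In the 11 and 38 marker-free SMC-like cells the Notch3 ratio was -1.61, against 0.25 in all SMC-like cells. The looser filter gave no venous class.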
